A study of Mus musculus with 2 samples.

Results

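The Sprr genes encode small proline-rich proteins, and 10 of them were examined in cultured mouse intestinal stem cells with and without Stat6: Sprr1a, Sprr2a1, Sprr2a2, Sprr2a3, Sprr2b, Sprr2d, Sprr2e, Sprr2f, Sprr2g and Sprr2h. They were found by gene symbol in the 2 expression tables, joined on Entrez gene number. Of the 10, 9 were listed among 18944 genes, and Sprr2g was not analysed here. The listed Sprr2 genes numbered 8. The members were selected on their FPKM values in these 2 libraries, KO against WT, as well as by name, so the difference between the libraries is given as a description and no test of it was made.

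Small proline-rich proteins were first known as precursors of the cornified envelope, the protein shell of squamous cells, in which transglutaminases crosslink them to other proteins. Their genes lie side by side in the epidermal differentiation complex, a gene cluster on mouse chromosome 3 that also holds loricrin, involucrin and S100 genes. In the gut, Sprr2a is known as a gene that rises when bacteria colonise the intestine, and its product as a secreted antibacterial protein. IL-4 and IL-13, the cytokines that signal through STAT6, are known to induce it.

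RNA sequencing compared 1 wild type (WT) library with 1 Stat6 knockout (KO) library. Both cultures came from mice aged 2 months carrying Lgr5GFP-CreERT2, an allele that puts green fluorescent protein and an inducible Cre under the control of the stem cell gene Lgr5. Both were grown in medium with EGF, R-spondin 1, N-acetylcysteine and the kinase inhibitor Y27632. The KO cells had been infected with a CRISPR/Cas lentivirus directed at Stat6 and then screened for loss of Stat6. The labels carry the same treatment text for WT and do not say whether WT received a control virus or whether either culture was clonal. With 1 library per genotype, no value below has a replicate check, and genotype and culture cannot be told apart.

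The Stat6 transcript was at 41.3 FPKM (WT) and 44.2 FPKM (KO). FPKM stands for fragments per kilobase, relative to all mapped fragments. A small CRISPR lesion need not lower a transcript, so this does not check the label. Depth, estimated from the smallest steps of the values, was about 19300000 reads (WT) and 19600000 reads (KO), below the mean of 59000000 reads per library that the labels give. A multiple of a depth gives whole reads too, and a search near the labels' number, added after seeing the data, gave 58600000 and 60100000. The read numbers below take the smallest step as 1 read and would be larger at those depths. All 13 listed Lgr5+ stem cell markers reached 1 FPKM in at least 1 library, among them Lgr5 at 1.79 and 1.88 FPKM. The absorptive enterocyte markers summed to 4815 FPKM (WT) and 16890 FPKM (KO), so RNA of differentiated cells was abundant in both cultures. In such bulk RNA, fewer cells of a type and less RNA per cell cannot be told apart.

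How far the Sprr2 copies can be told apart bears on every value that follows. The first 60 coding bases of 6 members are shown, read from GENCODE M21 transcripts, in lower case. Capitals mark bases that differ from Sprr2a1 at the same position, counted from the start codon. Sprr1a starts differently, with 35 of 60 positions unlike Sprr2a1, and is left without capitals.
Sprr2a1: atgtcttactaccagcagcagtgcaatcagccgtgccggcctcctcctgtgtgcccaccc
Sprr2a3: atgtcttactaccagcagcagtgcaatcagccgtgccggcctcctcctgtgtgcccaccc
Sprr2b: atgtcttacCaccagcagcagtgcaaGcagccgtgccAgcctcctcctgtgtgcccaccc
Sprr2h: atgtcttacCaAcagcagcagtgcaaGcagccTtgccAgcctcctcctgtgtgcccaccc
Sprr2f: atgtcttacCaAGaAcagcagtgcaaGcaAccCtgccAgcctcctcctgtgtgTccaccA
Sprr1a: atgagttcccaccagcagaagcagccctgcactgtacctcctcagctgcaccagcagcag

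Sprr2a1 and Sprr2a2 had the same coding sequence of 252 bases, and Sprr2a3 matched them in 249 of 252. The other Sprr2 genes diverged along the coding sequence. Sprr2b was 74.7% identical to Sprr2a1, Sprr2f 66.7% and Sprr2h 62.1%, counted over aligned columns, gaps included. Sprr1a, with 435 coding bases, was 42.5% identical to Sprr2a1.

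The reads were 50 bases long, so each transcript was divided into all its 50-base windows, which were looked up on both strands of every GENCODE transcript. Of the windows of Sprr2a1, 3.72% occurred in no other gene, and of those of Sprr2a2, 3.53%. Sprr2a3 had 38.9% such windows. A read from the Sprr2a copies could therefore often not be placed in 1 gene by its sequence, and the deposited values of the single copies rest on an estimated division. Sprr2f stood on the other side, with 99.3% of its windows found nowhere else, and Sprr1a and Sprr2h had 100%. Sprr2b had 85.9%, and the remaining 14.1% of its windows were shared with a Sprr2a copy.

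**Figure D1:**
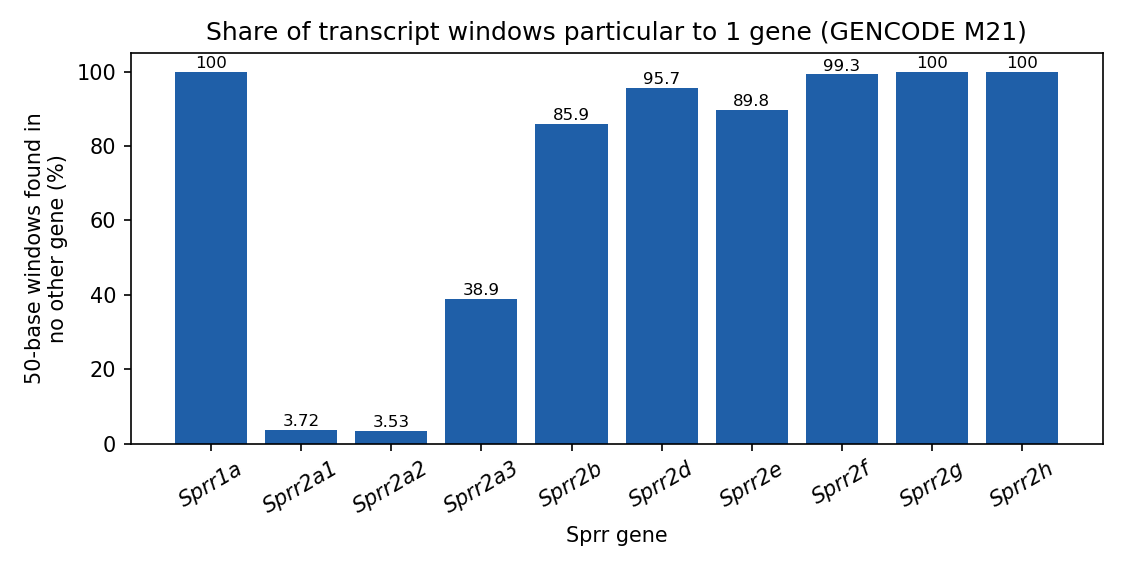
Bars give the percentage of 50-base windows in each gene's GENCODE M21 transcripts that occur in no other gene. Sprr2a1 and Sprr2a2 are under 4%, Sprr2a3 is at 38.9%, and the 7 other genes are at 85.9% or more.

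Sprr2a3 had the highest deposited value of all 18944 genes in both libraries, at 5782 FPKM (WT) and 10307 FPKM (KO). Sprr2a1 was at 1444 FPKM (WT) and 2181 FPKM (KO), and Sprr2a2 at 1467 and 2596 FPKM. That place rests on the division of reads among the copies and on the transcript lengths used for it. Each of the copies was higher in the KO library. The KO to WT ratio was 1.78 for Sprr2a3, 1.77 for Sprr2a2 and 1.51 for Sprr2a1.

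Added up, the Sprr2a copies were at 8693 FPKM (WT) and 15084 FPKM (KO), a ratio of 1.74. They made up 1.72% of the summed FPKM of the WT library and 3.04% of that of the KO library. Because the ratios of the 3 copies lay between 1.51 and 1.78, any weighting of the copies that is the same in both libraries gives a ratio within that range. The division among them was similar in both libraries, with Sprr2a3 holding 66.5% of the sum in WT and 68.3% in KO. Sprr2a3 stood at 3.94 times Sprr2a2 in WT and at 3.97 times in KO. FPKM is per length, and the copies' transcripts in GENCODE range from 682 to 3003 bases. The labels do not give the lengths used for the deposited values, so no order of the copies is read from these levels.

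**Figure D2:**
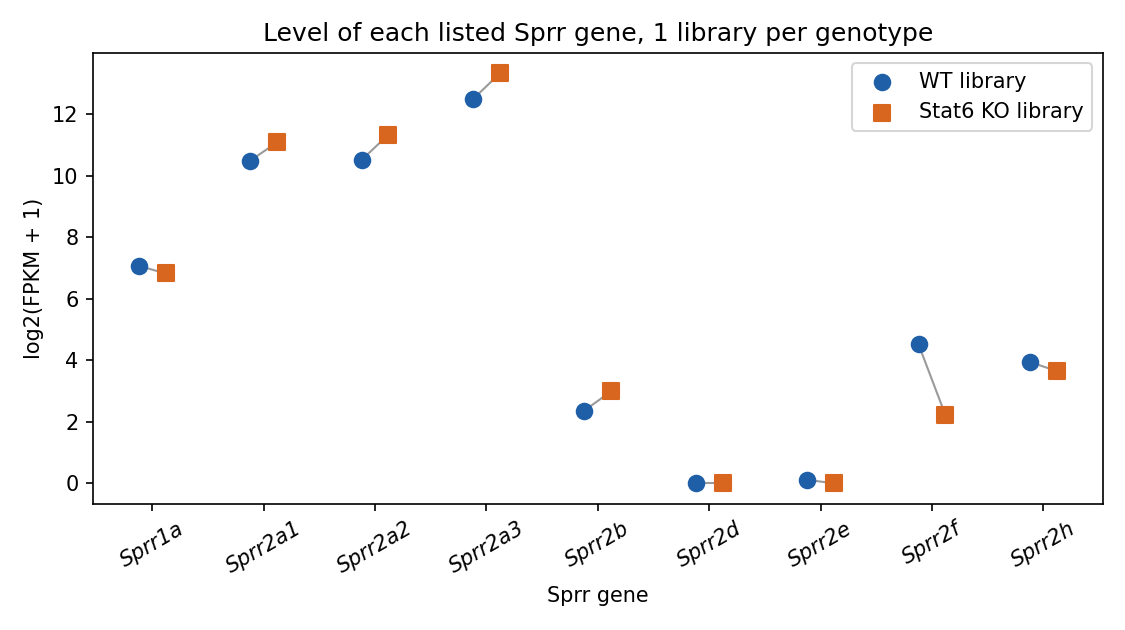
The vertical axis is log2(FPKM + 1) for each of the 9 listed genes, with circles for the WT library and squares for the KO library. The Sprr2a copies lie at the top and are higher in KO, while Sprr2f is at 21.9 FPKM (WT) and 3.71 FPKM (KO).

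Differences were measured as the log2 ratio, log2((KO FPKM + 1)/(WT FPKM + 1)), for every gene with 1 FPKM or more in either library. A total of 12079 genes reached that minimum, 7 of the 9 listed Sprr genes among them. The log2 ratio of the Sprr2a sum was 0.80, and 0.59, 0.82 and 0.83 for Sprr2a1, Sprr2a2 and Sprr2a3. The median log2 ratio of all genes was -0.18, and 3.25% of genes had a higher log2 ratio than Sprr2a3. The Sprr2a copies thus stood above most genes and below 2-fold on the deposited scale.

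That position depends on the scaling. After scaling by TMM, the trimmed mean of M values, with a factor of 0.85, which moved the median of all genes to 0.02, Sprr2a3 was at 1.07 and Sprr2a2 at 1.06, past 2-fold, and Sprr2a1 at 0.83. With the median of all genes set to 0 the values were 1.01, 1.00 and 0.78 in the same order. The sign was positive for all 3 copies under every scaling tried.

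At such levels few genes can be set beside them. A mean of 1000 FPKM or more was reached by 59 genes, the Sprr2a copies among them, and the median log2 ratio of the 59 was -0.10. Of these, 6 had a higher log2 ratio than Sprr2a3. They were Fabp2 (2.48), Fabp1 (1.80) and Rbp2 (1.51), which bind fatty acids and retinol in enterocytes, and the glutathione transferases Gstm3 (1.57), Gstm1 (1.27) and Gsta1 (0.98). This cut at 1000 FPKM was chosen after the values were seen. No gene outside the family had a mean within 2-fold of that of the Sprr2 sum, so the planned choice of genes most like it was empty.

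**Figure D3:**
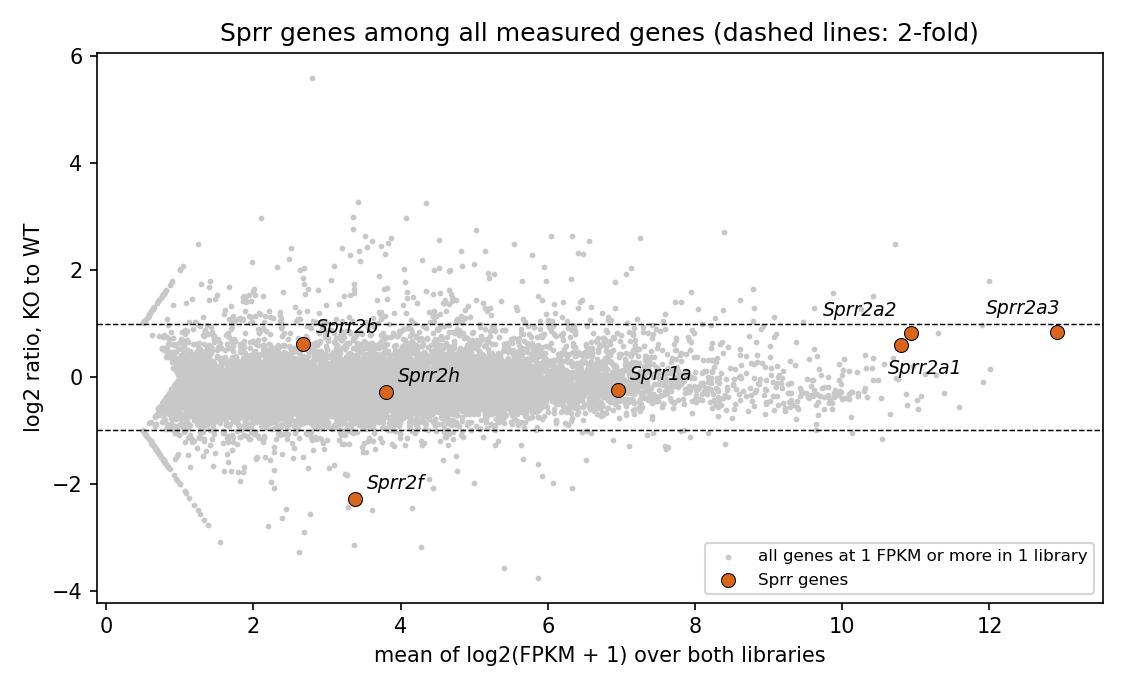
Each grey point is 1 of 12079 genes, with its mean log2(FPKM + 1) over both libraries on the horizontal axis and its log2 ratio on the vertical axis; orange points are the 7 Sprr genes at the minimum. Sprr2a3 lies farthest right of all genes, and Sprr2f at -2.28 is the only Sprr gene outside the dashed 2-fold lines.

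Sprr2f had the largest difference of the family, and in the opposite direction. It was at 21.9 FPKM (WT) and 3.71 FPKM (KO), so its WT level was 5.91 times its KO level. At the estimated depths and its 609-base transcript these levels correspond to about 243 and 41.8 reads. The log2 ratio was -2.28, and 0.157% of the 12079 genes had a lower one. It was -2.10 with the TMM factor and -1.63 with a pseudocount of 5 FPKM.

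Sprr2h, the next of the low Sprr2 genes, was at 14.4 FPKM (WT) and 11.6 FPKM (KO), with a KO to WT log2 ratio of -0.29. Relative to the median of all genes its log2 ratio was -0.11. Sprr2f and Sprr2h stood in opposite order in the 2 libraries, with Sprr2f at 1.52 times Sprr2h in WT and Sprr2h at 3.12 times Sprr2f in KO. Sprr2b was at 4.16 and 6.95 FPKM (log2 ratio 0.62), the latter about 102 reads. Its ratio of 1.67 lay within the range of the Sprr2a copies, with which it shares the windows described above. Whether reads of those far more abundant copies enter the Sprr2b value was not tested.

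The last Sprr2 genes were at or near 0. Sprr2d was listed at 0 in both libraries. Sprr2e was at 0.08 FPKM in WT, about 0.943 of a read, and was listed at 0 in KO. Sprr2i and Sprr2k, the listed genes of the family outside the group described, were at 0.17 FPKM or less.

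The Sprr2 sum over 8 genes was 8734 FPKM (WT) and 15106 FPKM (KO), a ratio of 1.73 and a log2 ratio of 0.79. The sum is nearly all Sprr2a. Without the Sprr2a copies it went the other way, with 40.6 FPKM (WT) and 22.2 FPKM (KO), a log2 ratio of -0.84. Within that remainder Sprr2f held 54.1% in WT and 16.7% in KO, and Sprr2h 35.5% and 52.1%. The total over Sprr2 thus follows the Sprr2a copies and does not show the lower level of Sprr2f.

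Sprr1a, the member outside the Sprr2 genes, shared no window with another gene and was at 134 FPKM (WT) and 112 FPKM (KO), about 1984 and 1701 reads. Its log2 ratio was -0.25 on the deposited scale and -0.02 with the TMM factor, and 58.2% of genes had a higher one. Sprr1a therefore lay near the middle of all genes while the Sprr2a copies on the same chromosome did not.

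Counted over the 7 genes at the minimum, 0 were at least 2-fold higher in KO, where 2.44% of all genes were, and 1 was at least 2-fold lower, where 2.19% were. With the TMM factor 2 were at least 2-fold higher, where 3.64% of all genes were, and 2 with the median set to 0, where 3.39% of all genes were. At 1.5-fold, 4 were higher, where 5.71% of all genes were. The family had 4 positive and 3 negative log2 ratios and a median of 0.59, while 30.3% of all genes had a positive log2 ratio. These counts used the same comparison as the choice of the genes, and nothing is read from them.

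**Figure D4:**
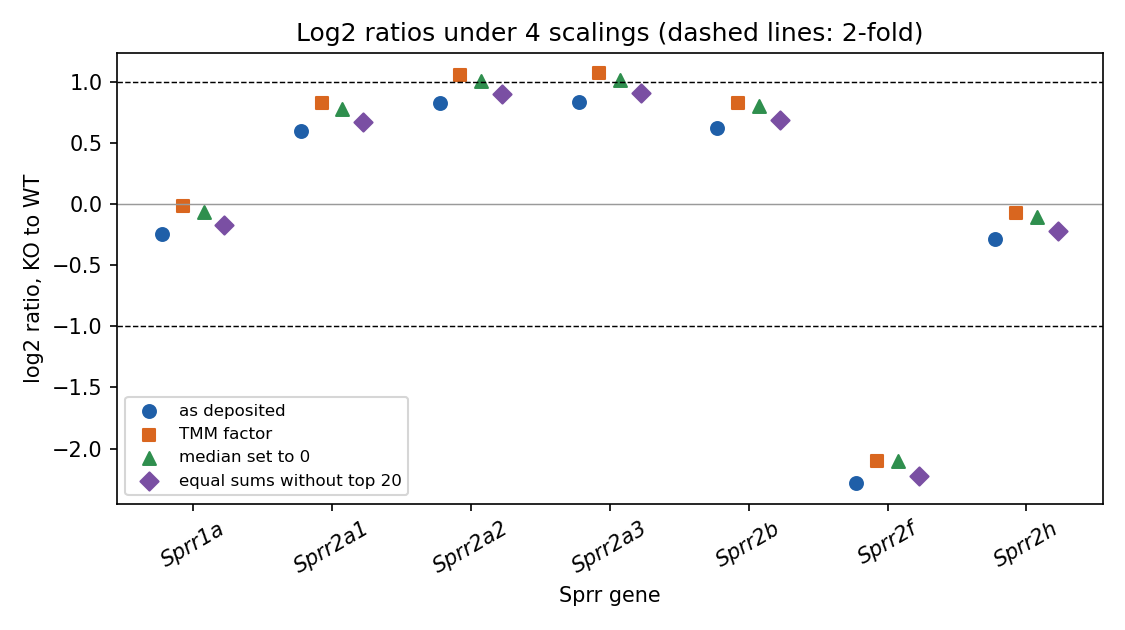
The log2 ratio of KO to WT (vertical axis) is shown for the 7 Sprr genes at the minimum, as deposited and under 3 other scalings. Sprr2a2 and Sprr2a3 cross the 2-fold line under the TMM factor and with the median set to 0, and Sprr2f is below -2 in all 4.

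The sequence before each annotated start, where most promoter elements lie, was compared because the copies differed in the direction of their levels. RefSeq start sites were found for 9 of the 10 genes. The 250 bases before the start are given for 4 of them, 5′ to 3′ on the gene's strand, from the RefSeq table of build GRCm38.p6, a later build than the mm9 of the deposited values. Capitals mark matches to 5 motifs, searched on both strands: TTCNNNNGAA (the form STAT6 prefers), TTCNNNGAA (the form of other STAT factors), TGANTCA (AP-1), ATTTGCAT (the octamer of POU factors) and TATAAA (the TATA box).
Sprr2a1, GRCm38.p6 chr3:92215585-92215834, plus strand: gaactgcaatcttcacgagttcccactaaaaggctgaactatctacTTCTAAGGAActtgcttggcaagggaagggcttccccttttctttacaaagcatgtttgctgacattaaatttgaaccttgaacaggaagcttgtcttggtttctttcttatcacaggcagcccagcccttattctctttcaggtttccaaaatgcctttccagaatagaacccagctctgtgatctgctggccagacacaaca
Sprr2b, GRCm38.p6 chr3:92316455-92316704, plus strand: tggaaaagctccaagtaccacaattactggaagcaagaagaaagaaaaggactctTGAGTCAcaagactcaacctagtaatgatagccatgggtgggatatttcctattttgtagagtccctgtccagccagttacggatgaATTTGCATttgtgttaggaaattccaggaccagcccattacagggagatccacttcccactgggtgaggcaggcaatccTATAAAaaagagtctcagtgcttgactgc
Sprr2f, GRCm38.p6 chr3:92364937-92365186, plus strand: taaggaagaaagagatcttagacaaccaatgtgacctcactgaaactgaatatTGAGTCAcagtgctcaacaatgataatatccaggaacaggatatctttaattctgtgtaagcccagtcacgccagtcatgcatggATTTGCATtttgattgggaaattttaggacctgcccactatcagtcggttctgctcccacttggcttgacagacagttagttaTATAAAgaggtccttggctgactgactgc
Sprr1a, GRCm38.p6 chr3:92485882-92486131, minus strand: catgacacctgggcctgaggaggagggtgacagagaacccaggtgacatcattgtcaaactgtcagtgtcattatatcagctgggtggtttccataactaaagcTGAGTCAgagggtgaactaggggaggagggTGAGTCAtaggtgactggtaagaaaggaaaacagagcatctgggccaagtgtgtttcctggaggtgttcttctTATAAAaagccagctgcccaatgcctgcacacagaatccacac

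Sprr2a1 and Sprr2a2 had the same 250 bases, and Sprr2a3 shared a run of 222 bases with them, shifted by 28 bases. TTCNNNNGAA occurred in the windows of the 3 Sprr2a copies and of no other member, beginning 204 bases before the start in Sprr2a1 and Sprr2a2 and 176 in Sprr2a3. It occurs in 5.85% of all 32851 windows in the table. Sprr2a3 also held TTCNNNGAA, which is in 7.02% of windows.

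In the windows before their annotated starts, the other Sprr2 genes had another set of letters. ATTTGCAT was found in Sprr2b, Sprr2d, Sprr2e, Sprr2f and Sprr2h, 5 of 9 members, and in 1.60% of all windows. TGANTCA and TATAAA were each found in these 5 and in Sprr1a, where TGANTCA occurs at 2 places; they are in 6.75% and 12.4% of all windows. No 2 of the 5 motifs overlapped in the 4 windows printed. Sprr2b and Sprr2f had the same 3 motifs. The log2 ratio was 0.62 for Sprr2b, which shares transcript windows with the Sprr2a copies, and -2.28 for Sprr2f. A link between motifs and levels was not tested. Outside the Sprr2a copies, no member shared an exact run of more than 9 bases with the window of Sprr2a1. The motifs were chosen with the sequences in view, and a match is a description of letters, not a binding site. Each window rests on a single annotated start. The GENCODE transcripts of Sprr2a2 are 722 and 2867 bases long, those of Sprr2a3 682 and 2880, and that of Sprr2a1 3003. That of Sprr2b is 784 bases long. Windows before other possible starts were not searched, so the contrast between the Sprr2 genes holds for the annotated starts only.

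The genes around the family were listed at or near 0, where listed. In RefSeq order, 9 genes that are not members lie between the outermost ones, and of these 2 were listed and 0 reached 1 FPKM. Of the 10 genes on either side, 3 and 1 were listed and 0 reached 1 FPKM. Among them were Lor (loricrin) at 0.23 and 0.08 FPKM and Ivl (involucrin) at 0.05 FPKM in both libraries, both major envelope proteins. Of 35 genes of the complex taken as envelope precursors outside the Sprr family, Lor and Ivl included, 8 were listed. The highest was Tchh (trichohyalin) at 0.69 FPKM in WT. The Sprr2a copies, at 8693 and 15084 FPKM in sum, were thus measured in cultures where those listed precursors were under 1 FPKM.

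The S100 genes of the complex, which encode calcium-binding proteins, were lower in the KO library where they reached the minimum, unlike the Sprr2a copies. Of 14 listed, 8 reached the minimum. All 8 had negative log2 ratios as deposited, where 69.6% of all genes did, and with the TMM factor, where 47.2% did. Their median was -0.53, or -0.35 with the TMM factor, against -0.18 and 0.02 for all genes. S100a11 was at 1613 FPKM (WT) and 777 FPKM (KO), with a KO to WT log2 ratio of -1.05, and was not past 2-fold with the TMM factor, at -0.82. The other 7 were within 2-fold, and 2.19% of all genes were at least 2-fold lower.

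Enzymes and scaffolds of the envelope were mostly within 2-fold. Of 7 transglutaminases, the crosslinking enzymes, 2 reached the minimum. Tgm2 was at 42.0 and 40.6 FPKM, and Tgm4 had a log2 ratio of 0.30. Tgm1, the main enzyme of the epidermis, was at 0.98 and 0.31 FPKM. Of 16 plakin, plakoglobin and desmosome genes 10 reached the minimum, with a median of -0.19 (0.03 with the TMM factor). Of these 10, 0 were at least 2-fold higher, where 2.44% of all genes were, and 1 lower, where 2.19% were. The lower gene was Dsg3, a desmosomal cadherin of squamous epithelium, at 11.1 and 0.74 FPKM (-2.80).

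Markers of stratified squamous epithelium were mostly at or near 0. Of 16, 14 were listed and 4 reached the minimum. Krt1, Krt4 and Krt13 were listed at 0 in both libraries, and Trp63, the master regulator of basal squamous cells, at 0 in WT and 0.01 FPKM in KO. The 4 at the minimum had negative log2 ratios, as 69.6% of all genes did. Krt6a was at 4.25 and 1.04 FPKM (-1.36) and the cell cycle protein gene Sfn at 302 and 122 FPKM (-1.30). Both were at least 2-fold lower, as 2.19% of all genes were. Krt5, at 4.75 and 3.52 FPKM (-0.35), and Sbsn, at 1.26 and 1.03 FPKM (-0.15), were within 2-fold. The summed level of the list was 315 FPKM (WT) and 130 FPKM (KO), mostly Sfn.

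Factors known to act on Sprr promoters were counted from lists. Of 7 AP-1 subunits 1 was at least 2-fold lower, where 2.19% of all genes were, and 0 higher, where 2.44% were. The lower one was Fosl1, which encodes FRA-1, at 16.8 and 4.07 FPKM (-1.81). The median of the 7 was -0.78 (-0.55 with the TMM factor). Positive log2 ratios were found for 2 of them, Jun (0.10) and Junb (0.13), and for 3 with the TMM factor. Of 9 ETS and KLF factors 0 passed 2-fold as deposited, where 2.44% of all genes were higher and 2.19% lower. The highest was Klf4, a differentiation factor of gut and skin epithelium, at 26.4 and 51.3 FPKM (0.93, and 1.16 with the TMM factor), and the lowest Ets1 (-0.49).

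In the STAT3 and STAT6 pathways 7 of 13 genes reached the minimum, with a median of 0.02 (0.24 with the TMM factor). Of these 7, 0 passed 2-fold, where 2.44% of all genes were higher and 2.19% lower. Il13ra1, a receptor chain for IL-13, was highest at 29.6 and 42.8 FPKM (0.52), and Il6st, the signalling chain of the IL-6 receptor family, lowest at 7.05 and 4.47 FPKM (-0.56). Il4 and Il13 were not analysed here. Neither cytokine is named among the additives of the medium.

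Enterocyte markers were higher in the same library as the Sprr2a copies. All 15 had positive log2 ratios, as 30.3% of all genes did, and 13 were at least 2-fold higher, as 2.44% of all genes were, with a median of 1.80 and a range from 0.57 to 2.98. Lct (lactase) and Apoa1 (an apolipoprotein) were highest, at 2.98 and 2.71, and Fabp2 was at 714 and 3997 FPKM (2.48). The lowest values, 0.57 for Vil1 and 0.83 for Apob, overlapped with those of the Sprr2a copies. The part of enterocyte content in the Sprr2a values was not tested.

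Of the other marker lists, none had a gene at least 2-fold higher in the KO library, and their genes at least 2-fold lower stand beside 2.19% of all genes (1.42% with the TMM factor). Negative log2 ratios were found for 69.6% of all genes as deposited and 47.2% with the TMM factor. Stem cell markers had a median of -0.35, or -0.15 with the TMM factor, with 10 of 13 negative, or 7 with the TMM factor. Of these 13, 2 were at least 2-fold lower, Sox9 (-1.14) and Cdk6 (12.9 and 5.96 FPKM), and 0 with the TMM factor. The 3 stem cell markers with positive log2 ratios as deposited were Tnfrsf19 (0.19), Smoc2 (0.19) and Lgr5 (0.05). Regenerating and fetal-like epithelium markers had a median of -0.56, or -0.35 with the TMM factor, with 10 of 13 negative in both. Of these 13, 2 were at least 2-fold lower, Anxa1 (-1.49) and Ly6a (317 and 157 FPKM), and 1 with the TMM factor. The 3 with positive log2 ratios were Msln (0.68), Ctgf (0.40) and Il33 (0.28).

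White blood cell markers had a median of -0.76 over 8 genes, or -0.62 with the TMM factor, with 7 negative in both. The positive one was Itgam (0.27). Cd68 (-1.40) and Coro1a (-1.14) were at least 2-fold lower, and Ptprc, which nearly all white blood cells express, was at 1.43 and 0.57 FPKM. Mesenchyme markers had a median of -0.65 over 4 genes, or -0.55 with the TMM factor, with 3 negative in both and Tagln (0.05) positive. Vim (-1.19) was at least 2-fold lower, though not with the TMM factor, at -0.97. The summed white blood cell markers were at 50.9 FPKM (WT) and 23.4 FPKM (KO). The summed mesenchyme markers were at 67.9 and 31.0 FPKM, mostly Vim at 59.8 and 25.6 FPKM, and the other 9 genes summed to 8.06 and 5.35 FPKM. The part of these cell types in the Sprr2f value was not tested.

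**Figure D5:**
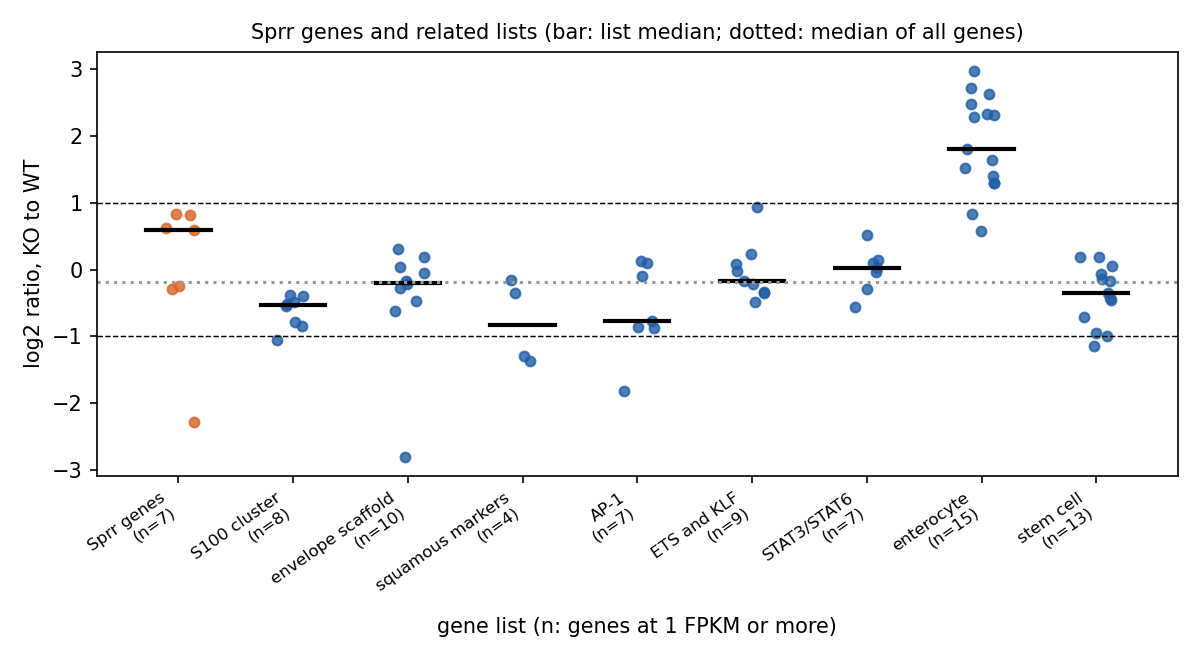
Points are single genes at the minimum, placed by gene list, with the log2 ratio of KO to WT on the vertical axis; bars are list medians and the dotted line is the median of all genes at -0.18. The Sprr genes spread from -2.28 to 0.83, all 8 S100 genes lie below the dotted line and all 15 enterocyte genes lie above 0.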

How the data were processed

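RNA of 1 WT and 1 Stat6 KO culture was sequenced in single-end reads of 50 bases, with a mean of 59000000 per library, per the labels' protocols. Per the file headers the authors deposited gene FPKM, here with 2 decimals. HISAT, Bowtie2, RSEM and mm9 are named in the submitters' processing notes, without versions, roles or an annotation. Groups follow the genotype label.

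Log2 ratios used a pseudocount of 1 FPKM, which understates the change of low genes, and a minimum of 1 FPKM in at least 1 library. A 2-fold difference was counted, with no test, since each genotype has 1 library. Depth was estimated by bringing short RNA genes of up to 6 reads closest to whole reads, between 10000000 and 30000000 reads with lengths from RefSeq less 35 bases. In WT 86.7% and in KO 88.8% of values then lay within 0.1 read of a whole number. The depth was chosen for this, and the shares do not test it. Between 5000000 and 10000000 reads the highest shares were 29.7% and 29.3%, and between 50000000 and 70000000 reads 90.0% and 89.9%. The shares alone therefore do not tell a depth from its multiple. At the higher depths the smallest step would stand for more than 1 read.

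The TMM factor used trims of 30% and 5%. Calculations were tested on simulated data. Python 3.11.15, pandas 2.3.3 and Biopython 1.88 were used. The text names all members, and of each of 14 other lists the genes past 2-fold, at most 4 by size, or the highest and lowest where none was. A gene that this rule selects is not reported here. Some further genes are named for background, as defining markers or for the other direction in a list, chosen after their values were seen. The members and lists were chosen with earlier results of these data known.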

Additional observations from a re-analysis of the deposited data

How the results depend on the processing

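Without the Sprr2a copies the log2 ratio of the Sprr2 sum turned from 0.79 to -0.84, since the copies of opposite direction were then left out. Under the other alternatives for that sum it stayed between 0.70 and 1.02. The log2 ratio of the Sprr2a sum ranged from 0.79 to 1.03 and that of Sprr1a from -0.25 to -0.02. The number of Sprr genes at least 2-fold higher went from 0 to 2 with the TMM factor and to 2 with the median set to 0, and to 4 at 1.5-fold; 1 was lower under every alternative. Of 35 alternatives for single Sprr2 genes 32 stayed within 1.5-fold. The exceptions were Sprr2f with a pseudocount of 5 FPKM (-1.63) and Sprr2e, at about 1 read, with a pseudocount of 0.1 FPKM (-0.85) and, reversed, with the median set to 0 (0.069). Sprr2d, at 0 in both libraries, gave no values.

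Over all genes, 295 were at least 2-fold higher and 264 lower. The higher count became 144 with a pseudocount of 5 FPKM, 690 at 1.5-fold and 51 at 4-fold. The lower count became 607 with a pseudocount of 0.1 FPKM, 63 with 5 FPKM, 171 with the TMM factor, 160 with the median set to 0, 150 with a minimum of 5 FPKM, 1385 at 1.5-fold and 27 at 4-fold. With the TMM factor 440 genes were higher. No paired analysis was possible because each genotype has 1 library. The low members are limited by depth, and the single Sprr2a copies by shared sequence.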
